A study of Mus musculus with 30 samples.

Results

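The change of the response to corticotropin-releasing hormone (CRH) between 3 h and 6 h of treatment was measured in AtT-20 cells, a corticotrope line derived from a mouse pituitary tumour. Of the 30 two-colour cDNA arrays of the series, which covers 5 times, the 12 arrays of 3 h and 6 h were compared, 6 at each time. At each time, RNA of cells given 100 nM CRH was hybridised against RNA of untreated cells of the same time, so the 2 times share no control. All cells were serum deprived for 18 h before CRH, and the RNA was amplified before labelling. On 3 arrays of a time the CRH-treated RNA carried the green dye Cy3, and on the other 3 the red dye Cy5. Per time, 1 pair of RNA extracts was hybridised 6 times, so the arrays are technical replicates. The p-values below therefore compare 2 pairs of extracts with the spread between hybridisations, and a difference between cultures cannot be told apart from a difference between times. The value of an array was the log2 ratio of the CRH-treated to the untreated RNA, and the quantity compared was the mean ratio at 6 h minus that at 3 h, with dye orientation as a factor. The arrays of both times were quantified on 1 day.

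CRH is the hypothalamic peptide that drives corticotropes to secrete adrenocorticotropic hormone (ACTH), which is cut from the precursor encoded by Pomc. Its receptor CRHR1 couples to adenylyl cyclase, and cAMP activates protein kinase A and, through it, transcription factors of the CREB family. Immediate early genes of the Fos and Nr4a families are known to rise and fall within the first hours, whereas products of later genes include enzymes, granule proteins and feedback regulators.

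Of 22830 gene spots, 14375 were above the lowest 10% of intensities on all arrays of the series and were tested. A current gene symbol could be given to 5116 of them. The median channel intensity was 653.8 to 1196 on the 3 h arrays and 481.8 to 928.5 on the 6 h arrays, and 165 tested spots reached the scanner limit of 65000 on at least 1 of the 12 arrays. Of 10 genes that mark corticotropes, 8 were on the array, and 7 of these had a spot above the lowest 10% on all 12 arrays. The receptor gene Crhr1 itself had no spot that could be named. Of the other pituitary lineages, 1 of 7 marker genes could be found, the growth hormone gene Gh, and its spot was above that level. For fibroblasts 3 of 5 marker genes and for leukocytes 6 of 7 passed the same level, so that this level does not separate the cell types. The direction of every ratio rests on the dyes stated in the labels. After the ratios were turned to the same direction, arrays of the same time and orientation correlated across spots with r of 0.40 to 0.64, and arrays of opposite orientation with r of -0.47 to -0.23. The mean ratios of the 2 orientations correlated with r of -0.42 at 3 h and -0.64 at 6 h, a description over spots that share arrays.

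A total of 4 genes had a lower response at 6 h than at 3 h, and the only spot past the threshold in the other direction was at the scanner limit. The 4 were Mpp7, a scaffold protein of cell junctions, Ly6e, a surface protein anchored by a lipid, Lyve1, a receptor for hyaluronan, and Bcam, an adhesion molecule that binds laminin. The mean log2 ratio of each was between 0.51 and 1.18 at 3 h and between -0.16 and 0.11 at 6 h. At an adjusted p under 0.05 in limma, 4 of the 14375 spots were lower (0.0278%) and 1 was higher (0.00696%). At an unadjusted p under 0.01 there were 296 lower (2.06%) and 202 higher (1.41%) spots, and 1623 spots had an unadjusted p under 0.05. In bulk RNA, a change in the share of cells and a change in RNA per cell cannot be told apart.

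The promoters of 3 genes lower at 6 h are shown for the elements through which cAMP is known to act, namely Bcam and, from the genes that narrowly missed the test, Rpl41 and Mat2a. Each holds 250 bases before and 50 after the start from RefSeq (GRCm38.p6), read 5′ to 3′ on the strand of the gene, which is the minus strand for all 3. Capitals mark TGACG, the core of the cAMP response element, searched on both strands.
Bcam, chr7:19770483-19770782: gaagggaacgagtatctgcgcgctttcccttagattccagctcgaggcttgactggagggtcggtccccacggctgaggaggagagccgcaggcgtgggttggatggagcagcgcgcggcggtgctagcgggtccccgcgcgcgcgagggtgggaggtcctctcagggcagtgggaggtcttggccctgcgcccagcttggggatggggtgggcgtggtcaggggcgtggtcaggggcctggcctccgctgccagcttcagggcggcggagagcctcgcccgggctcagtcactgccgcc
Mat2a, chr6:72439507-72439806: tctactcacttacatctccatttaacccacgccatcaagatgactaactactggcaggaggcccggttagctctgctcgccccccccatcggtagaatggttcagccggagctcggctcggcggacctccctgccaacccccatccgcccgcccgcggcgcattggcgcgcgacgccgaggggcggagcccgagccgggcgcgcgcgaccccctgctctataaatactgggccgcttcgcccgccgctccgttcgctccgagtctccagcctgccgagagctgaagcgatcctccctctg
Rpl41, chr10:128549119-128549418: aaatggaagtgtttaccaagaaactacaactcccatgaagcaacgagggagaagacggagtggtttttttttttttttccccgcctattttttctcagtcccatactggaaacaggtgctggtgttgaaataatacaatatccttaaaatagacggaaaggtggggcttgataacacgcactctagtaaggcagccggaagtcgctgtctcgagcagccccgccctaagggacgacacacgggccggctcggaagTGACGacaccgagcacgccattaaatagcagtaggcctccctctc
The core was found in the Rpl41 window, 5 bases after the start, and not in the windows of Bcam and Mat2a. Of the 12 named genes whose response was at least 1.5-fold lower at 6 h, 8 had a promoter in the table, and 3 of these held the core, against 20.8% of 32851 promoters of this length. The full element TGACGTCA was in none of the 8, against 1.79% of all promoters, and the AP-1 element TGAGTCA was in none of them, against 5.2%. Of the 8 named genes at least 1.5-fold higher, 7 had a promoter, of which 4 held the core and 1, that of Mturn, the full element. The Mturn spot had a channel at the scanner limit on all 12 arrays, so its ratio is no sound measure of a response.

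Mpp7 had the most negative difference of the 14375 spots. With CRH in Cy3 its log2 ratios were 1.47, 1.48 and 1.62 on the 3 h arrays and 0.15, 0.14 and 0.02 on the 6 h arrays. With CRH in Cy5 they were 0.55, 0.84 and 1.10 at 3 h and -0.19, -0.11 and 0.06 at 6 h. Every 3 h array was above every 6 h array, in whichever orientation. The mean fell from 1.18 ± 0.42 to 0.01 ± 0.14 (SD, n = 6 arrays), a difference of -1.17 (SE 0.13, 95% interval -1.45 to -0.88; limma adjusted p = 0.000378). It was -1.42 in the Cy3 orientation and -0.91 in the Cy5 orientation. The call was kept in 29 of 31 fits, among them all 12 that left out 1 array, and was lost without the dye term (limma adjusted p = 0.088) and in the Cy5 orientation alone (limma adjusted p = 0.117). Counts of fits, here and below, include the main fit. The deposited file names this spot only by a RIKEN clone, which RefSeq lists as a synonym of Mpp7.

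Lyve1 had log2 ratios of 0.80, 0.71 and 0.95 at 3 h with CRH in Cy3, and of 0.54, 0.94 and 0.67 with CRH in Cy5. At 6 h the values were 0.16, 0.16 and 0.21 in the first orientation and 0.18, 0.02 and -0.06 in the second. The 2 times did not overlap, and the orientations gave nearly the same difference, -0.64 and -0.67. The mean fell from 0.77 ± 0.16 to 0.11 ± 0.11 (SD, n = 6 arrays), by 0.66 on the log2 scale (SE 0.11; limma adjusted p = 0.0297). The call held in 15 of 31 fits, and in 4 of the 12 that left out 1 array. Lyve1 is best known from lymphatic endothelium and some macrophages. Of the leukocyte marker list, 11 spots were tested, 4 of which had a difference below 0, with a median difference of 0.11, and none passed the test in either direction. The median of that list was 0.23 with CRH in Cy3 and -0.13 with CRH in Cy5, so its direction turned with the orientation. The cell source of the Lyve1 signal was not tested.

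Ly6e had log2 ratios of 0.80, 0.81 and 0.92 at 3 h with CRH in Cy3 and of 0.27, 0.44 and 0.55 with CRH in Cy5. At 6 h they were 0.33, 0.23 and 0.14 in the first orientation and -0.32, -0.37 and -0.18 in the second. Within an orientation the times did not overlap, but the lowest 3 h array with CRH in Cy5 was below the highest 6 h array with CRH in Cy3. The mean was 0.63 ± 0.25 at 3 h and -0.03 ± 0.30 at 6 h (SD, n = 6 arrays), with a difference of -0.66 (SE 0.10; limma adjusted p = 0.0221). Bcam behaved differently towards the dyes, with 0.44, 0.17 and 0.28 at 3 h and -0.61, -0.37 and -0.54 at 6 h where CRH was in Cy3. Where CRH was in Cy5 its ratios were 0.86, 0.81 and 0.50 at the earlier time and 0.09, 0.34 and 0.13 at the later. The times were again apart within each orientation, and the mean went from 0.51 ± 0.28 to -0.16 ± 0.40 (SD, n = 6 arrays), by -0.67 (SE 0.12; limma adjusted p = 0.0410). The call of Ly6e held in 19 of 31 fits and in 8 of the 12 that left out 1 array. That of Bcam held in 7 of 30 fits and in 1 of these 12, and its limma adjusted p ranged from 0.00394 to 0.738 over the fits. The Bcam spot is absent from the log2 ratios that the authors normalized, so it had no fit on them.

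The spot past the threshold in the positive direction is assigned to Exosc9, a subunit of the RNA exosome (limma adjusted p = 0.0165). Both of its channels were at the scanner limit on all 12 arrays, which held for 3 tested spots in all, so its ratio gives no response to CRH and no fold can be given. With all spots at the limit on any array left out, no spot was higher and 3 were lower at the adjusted threshold.

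**Figure D1:**
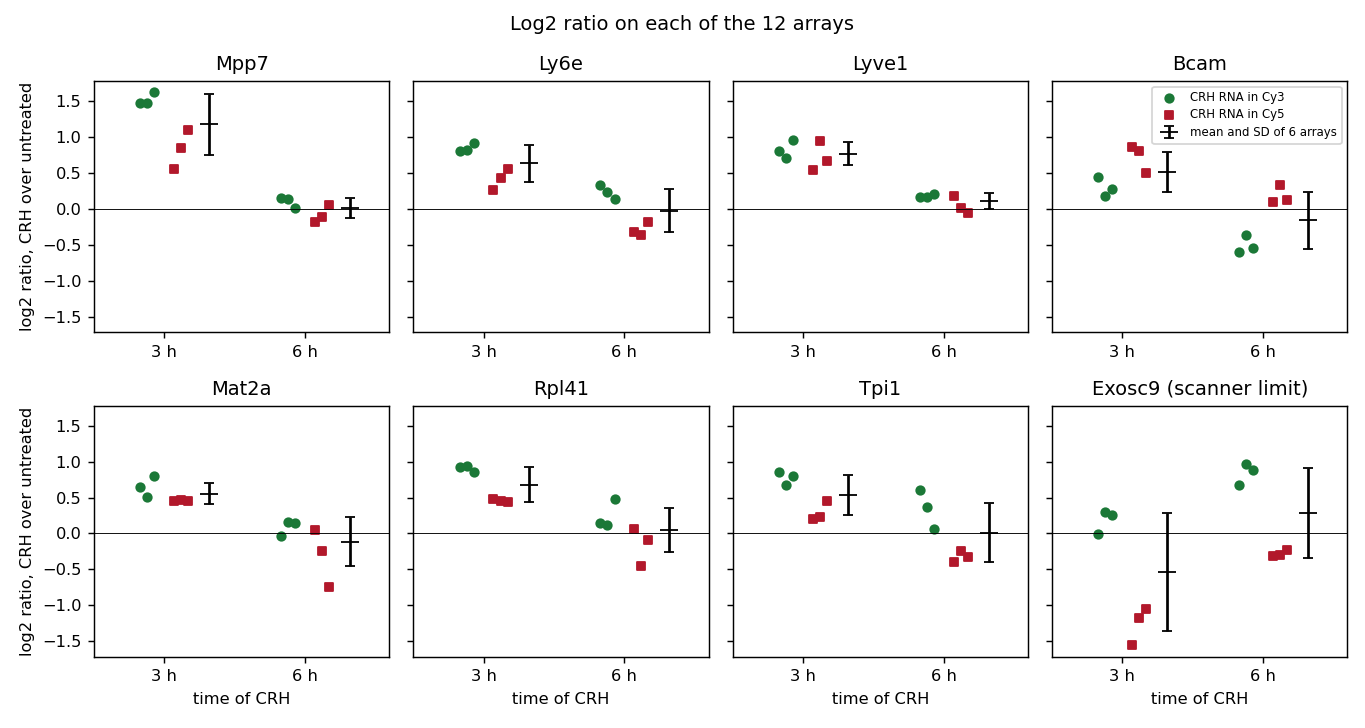
The y axis gives the log2 ratio of CRH over untreated for 8 spots and the x axis the 2 times, with 6 points a time, 1 per array, CRH RNA in Cy3 as green circles and in Cy5 as red squares, and the mean with SD of the 6 arrays in black. Within each orientation the 3 h and 6 h arrays of the first 7 genes do not overlap, and all values of Exosc9 come from channels at the scanner limit.

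The ratio can change through either RNA, and the levels of both channels were therefore compared, as log2 intensities after the average intensities of the 12 arrays had been given equal quantiles. For Mpp7 the CRH-treated RNA changed from 3 h to 6 h by -1.60 and the untreated RNA by -0.18 with CRH in Cy3, and by -0.50 and 0.41 with CRH in Cy5. For Ly6e the changes were -0.92 and -0.31 with CRH in Cy3, and -0.17 and 0.54 with CRH in Cy5. For Bcam the untreated RNA was higher by 0.91 at 6 h in both orientations, while the CRH-treated RNA changed by 0.11 and 0.37. For Lyve1 the mean changes were -0.29 for the CRH-treated and 0.37 for the untreated RNA. For Bcam and Lyve1 both orientations gave this split, whereas for Ly6e and Mpp7 it depended on the dye. Levels from single channels carry the array as well as the RNA: over all spots the changes of the 2 RNAs correlated with r of 0.92 (a description over 14375 spots that share arrays), with an SD of 0.46 for the CRH-treated and of 0.45 for the untreated RNA.

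By size, a change of at least 1.5-fold with the same sign in both orientations was seen for 22 spots lower (0.153%) and 17 spots higher (0.118%) at 6 h. Of the lower spots 1, and of the higher spots 5, were at the scanner limit on at least 1 array. In the lower group the level of the CRH-treated RNA was lower at 6 h in 18 of 22 spots and that of the untreated RNA higher in 16, with median changes of -0.54 and 0.11. In the higher group the medians were 0.37 for the CRH-treated and -0.39 for the untreated RNA. These spots were chosen by the ratio, so the opposite signs of the 2 channels are part of the choice.

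**Figure D2:**
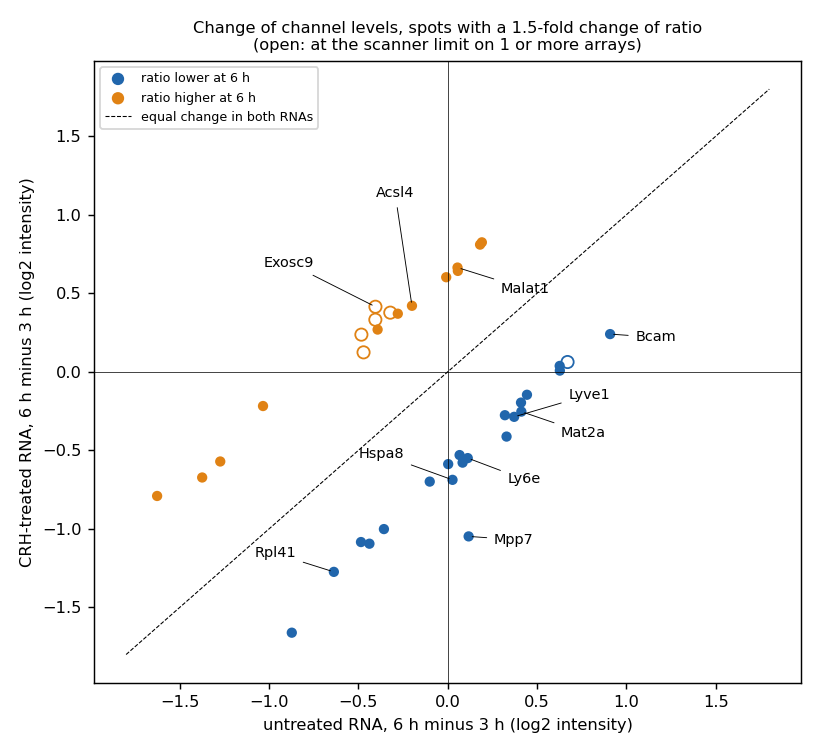
Change of the level of untreated RNA (x axis) and of CRH-treated RNA (y axis) from 3 h to 6 h, in log2 intensity with average intensities of the arrays set to equal quantiles, for the 39 spots with a change of ratio of at least 1.5-fold. As means of both orientations, Mpp7 lies at -1.05 for the treated and 0.12 for the untreated RNA, and Bcam at 0.24 and 0.91.

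Of the lower group with a symbol, several missed the adjusted threshold by little. Rpl41, a small protein of the large ribosomal subunit, had ratios of 0.44 to 0.95 (median 0.67) at 3 h and of -0.45 to 0.48 (median 0.09) at 6 h, a difference of -0.64 (SE 0.11; limma adjusted p = 0.0511), and it passed in 9 of 31 fits. Mat2a, which makes the methyl donor S-adenosylmethionine, had ratios of 0.45 to 0.80 (median 0.49) at 3 h and of -0.75 to 0.16 (median 0.01) at 6 h. Its difference was -0.67 (SE 0.13; adjusted p = 0.0671 in limma). The deposited file names 2 more spots Mat2a, with differences of -0.43 and -0.10, and the study's table gives no gene for the first of them. Hspa8, the constitutive Hsp70 chaperone, differed by -0.71 on 1 spot (adjusted p = 0.0750 in limma) and by -0.08 and -0.26 on the others, and the first of these was -0.26 with CRH in Cy3 and -1.17 with CRH in Cy5. Values between -0.60 and -0.62 were found for Slc3a2, the heavy chain of amino acid exchangers, Uggt1, a folding sensor of the endoplasmic reticulum, and Actr1b, a part of dynactin, with limma adjusted p-values of 0.0584 to 0.0747.

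Among the higher spots, Acsl4, which activates arachidonic acid, had ratios of -0.52 to -0.06 (median -0.13) at 3 h and of -0.26 to 0.93 (median 0.49) at 6 h. The difference of 0.62 (SE 0.16; limma adjusted p = 0.147) was 1.03 with CRH in Cy3 and 0.21 with CRH in Cy5. A spot that the study's table assigns to the long noncoding RNA Malat1, and the deposited file to a receptor activity modifying protein, behaved alike, with 1.05 and 0.17 (adjusted p = 0.138 in limma). A second Malat1 spot had a difference of 0.08. For both genes most of the increase stood in 1 orientation.

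The agreement of the 2 orientations was poor over the whole array. The 6 h minus 3 h difference in the Cy3 orientation and that in the Cy5 orientation correlated with r of -0.00096 across the 14375 spots, and 7224 spots (50.3%) had the same sign in both. Apart in both orientations, with all 6 h arrays below all 3 h arrays, were 183 spots (1.27%), with all 6 h arrays above, 127 (0.883%), and 274 were apart in opposite ways. The interaction of time and dye had an unadjusted p under 0.01 for 581 spots (4.04%) and a limma adjusted p under 0.05 for 3 (0.0209%). All 498 spots at an unadjusted p under 0.01 for time had the same sign in both orientations, which the test itself favours.

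**Figure D3:**
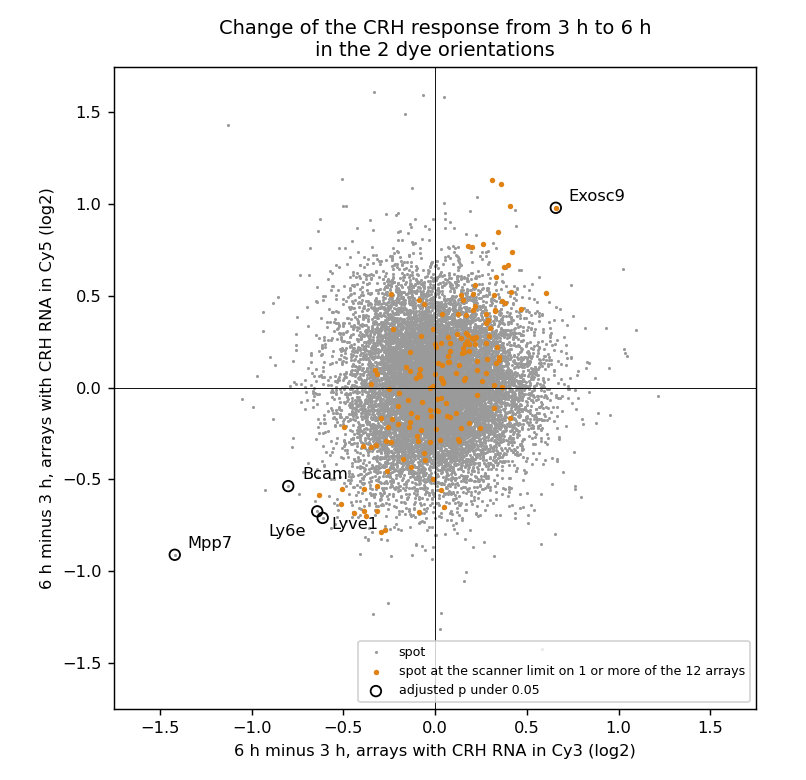
Difference of the log2 ratio, 6 h minus 3 h, on arrays with CRH RNA in Cy3 (x axis) and in Cy5 (y axis) for 14375 spots, with spots at the scanner limit in orange and spots at an adjusted p under 0.05 circled. The cloud has no tilt (r of -0.00096), and 4 circled spots lie in the lower left and 1, Exosc9, in the upper right.

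Seen at each time by itself, more spots stood above their control at 3 h than at 6 h. The rule used needs both dye orientations on the same side. Their mean ratios correlated across spots with r of -0.42 at 3 h and -0.64 at 6 h, and the part of this in the counts was not tested. A mean ratio of at least 1.5-fold with all 6 arrays on the same side was found at 3 h for 23 higher spots (0.16%) and 3 lower (0.0209%), and at 6 h for 5 higher (0.0348%) and none lower. Over all spots the SD of the mean ratio was 0.16 at 3 h and 0.12 at 6 h. Of these spots 3 were higher at both times: Syt4, a synaptotagmin of secretory vesicles (0.69 and 0.65), Misp3 (0.68 and 0.65) and an EST without a name (0.90 and 0.79). The difference of Syt4 between the times was -0.04 (limma adjusted p = 0.946), and a second Syt4 spot went from 0.64 to 0.43. At 6 h alone the rule held for p21-activated kinase 3 (0.44 and 0.79) and Zcchc12 (0.44 and 0.61). Odc1, which starts polyamine synthesis, was in the 3 h set with 0.75, and had 0.51 at 6 h. The difference itself was not past the adjusted threshold for Odc1, p21-activated kinase 3 or Zcchc12. The 3 lower spots of 3 h were Neurod1, a transcription factor of corticotropes (-0.73, and -0.47 at 6 h), and 2 spots at the scanner limit. At 6 h the sign of the ratio of this Neurod1 spot depended on the dye, with 0.28 for CRH in Cy3 and -1.22 for CRH in Cy5. Another Neurod1 spot had mean ratios below 0 in both orientations. They were -0.83 for CRH in Cy3 and -0.28 for CRH in Cy5 at 3 h, and -0.27 and -0.11 at 6 h.

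The median ratio of the 23 spots higher at 3 h was 0.68 there and 0.19 at 6 h, and in 8 of the 23 the 6 h ratio was at least 0.5 times the 3 h ratio. All 23 were lower at 6 h, part of which follows from choosing them on the 3 h arrays. At 12 h and 24 h their median was 0.22 and 0.29, and at 1 h -0.04.

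Gene groups were described by counts over their spots. Of all tested spots 46.8% had a difference below 0 and 53.2% above 0, with a median of 0.02. Against this, genes of glycolysis and hypoxia had 29 of 34 spots below 0 (85.3%) and a median of -0.21. The cytosolic ribosome had 64 of 85 (75.3%) and -0.17, the respiratory chain with ATP synthase 58 of 78 (74.4%) and -0.10, and the proteasome 28 of 40 (70%) and -0.09. In all 4 groups the median ratio was above 0 at 3 h (0.16, 0.19, 0.10 and 0.13 in this order) and near 0 at 6 h (0.01, 0.00, -0.04 and 0.03). No member of any of the 20 groups passed the adjusted threshold. In the brightest 25% of all spots 42.0% were below 0 with a median of 0.04, and 56 of the 85 ribosomal, 32 of the 78 respiratory and 10 of the 34 glycolytic spots were that bright.

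Within glycolysis, 6 of 34 spots were lower and 1 was higher at an unadjusted p under 0.01, against 2.06% lower and 1.41% higher over all spots. The lower ones were all enzymes of the pathway. Triose phosphate isomerase, Tpi1, had ratios of 0.20 to 0.85 (median 0.57) at 3 h and of -0.40 to 0.61 (median -0.09) at 6 h, with a difference of -0.52 (SE 0.12; limma adjusted p = 0.0906). Aldolase A, Aldoa, went from 0.42 ± 0.18 to -0.09 ± 0.25 (SD, n = 6 arrays). Gpi1, Pgk1, Aldoc and Eno1 had differences of -0.44, -0.37, -0.36 and -0.34. The exception was Ddit4, an inhibitor of mTOR signalling that stress and low oxygen are known to induce, with -0.14 at 3 h and 0.24 at 6 h. The medians of the group were alike in the orientations, -0.19 with CRH in Cy3 and -0.20 with CRH in Cy5, and 23 of the 34 spots were below 0 in both, against 23.8% of all tested spots.

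Of the ribosomal spots 14 of 85 were lower and 2 higher at the same threshold, against 2.06% and 1.41% of all spots. In the brightest 25% of all spots, to which 56 of these 85 belong, 3.84% were lower. After Rpl41, the lower ones were led by Rpl4 (-0.60), Rpl21 (-0.52), Rps24 (-0.50), Rps3 (-0.49) and Rpl7 (-0.47), proteins of both subunits. A second Rpl4 spot had a difference of 0.07. The 2 higher ones were Rps15a (0.41) and Rpl39l (0.37). Here the orientations were unequal, with medians of -0.03 and -0.30, and 40 of the 85 spots (47.1%) were below 0 in both, against the 23.8% of all spots. Ribosomal protein genes have many processed copies in the genome, and a spotted cDNA cannot separate their transcripts.

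In the respiratory chain 8 of 78 spots were lower and none higher, against the same 2.06% and 1.41%, led by Atp5l, a subunit of ATP synthase (0.22 ± 0.20 to -0.30 ± 0.25; SD, n = 6 arrays), with a difference of -0.52 (SE 0.10; limma adjusted p = 0.0671). Ndufv3 and Ndufs3 of complex I (-0.51 and -0.46) and Cox6b1 of cytochrome oxidase (-0.48) followed, although a second Ndufv3 spot had 0.13. In the proteasome the 3 lower spots were Psmb7, a catalytic subunit (-0.56), and the regulatory subunits Psmd8 (-0.48) and Psmc2 (-0.46), and 2 other Psmd8 spots had -0.25 and 0.05. The medians in the 2 orientations were -0.08 and -0.22 for the respiratory chain and -0.06 and -0.22 for the proteasome. Chaperones had 21 of 32 spots below 0 with a median of -0.07, and Cct8, a subunit of the chaperonin for actin and tubulin, went from 0.42 to 0.00.

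**Figure D4:**
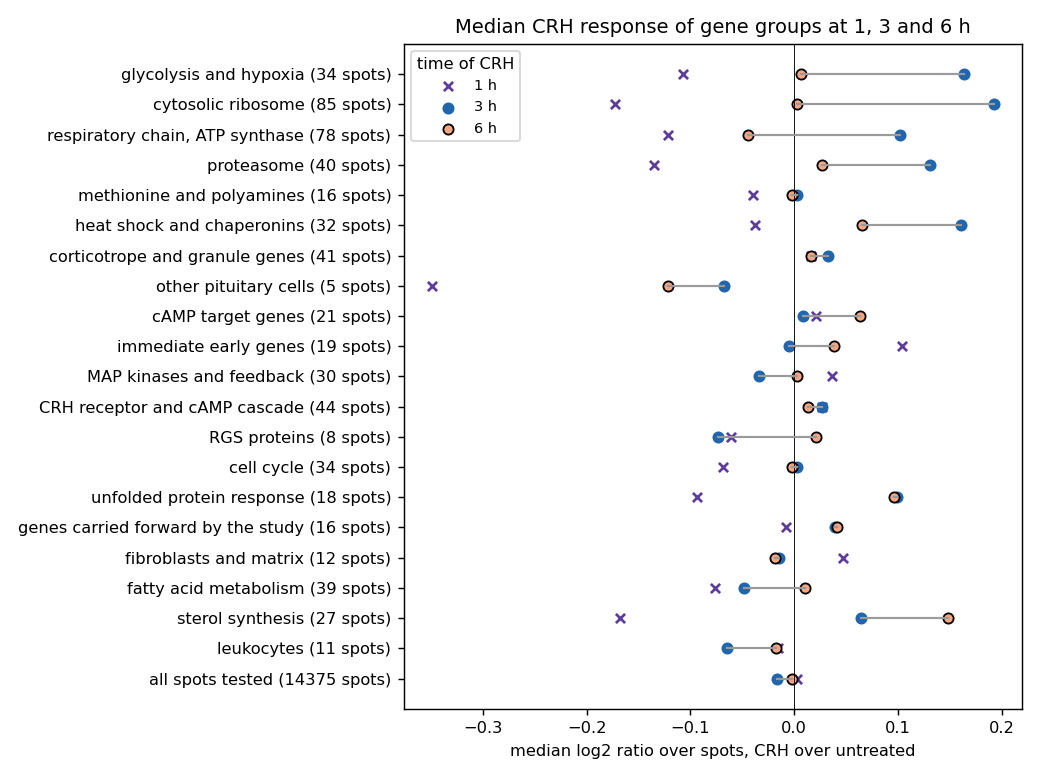
Median log2 ratio of CRH over untreated (x axis) of 20 gene groups and of all tested spots (y axis, with the number of spots) at 1 h (crosses), 3 h (filled blue) and 6 h (open orange), ordered by the median difference. Glycolysis, the cytosolic ribosome, the respiratory chain and the proteasome lie above 0 at 3 h (0.10 to 0.19), below 0 at 1 h and near 0 at 6 h.

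Sterol synthesis had the opposite sign, with 7 of 27 spots below 0 (25.9%) and a median difference of 0.09, from 0.06 at 3 h to 0.15 at 6 h. Its median was 0.13 with CRH in Cy3 and -0.03 with CRH in Cy5, so the direction turned with the orientation. Hmgcs1, which condenses acetyl units at the start of the pathway, had 0.01 ± 0.17 at 3 h and 0.47 ± 0.61 at 6 h (SD, n = 6 arrays). Its difference of 0.46 (limma adjusted p = 0.231) was 0.87 in the Cy3 and 0.05 in the Cy5 orientation, and a second spot had 0.28. Stard4, which carries cholesterol between membranes, had -0.36 on 1 spot and 0.21 on another. Fatty acid metabolism had 18 of 39 spots below 0 and a median of 0.04.

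For the components of the CRH signal itself, counts below 0 are set beside the 46.8% of all spots. The receptor and cAMP cascade had 22 of 44 spots below 0 and a median of 0.00, with values from -0.31 (Gnas, the stimulatory G protein) to 0.33 (Arrb1, an arrestin), and no spot at an unadjusted p under 0.01. RGS proteins, which switch G proteins off, had 4 of 8 spots below 0. Immediate early genes had 10 of 19 below 0 and a median of -0.02, cAMP target genes 12 of 21 and -0.03, and MAP kinases with their feedback genes 16 of 30 and -0.01. Of the immediate early genes on the array, 13 of 30 had a tested spot, and the others were not compared. The unfolded protein response had 8 of 18 below 0, cell cycle genes 15 of 34, and genes of methionine and polyamine synthesis 10 of 16.

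Pomc stood above its control at 3 h. Its ratios were 0.55, 0.49 and 0.80 with CRH in Cy3 and 0.16, 0.18 and 0.15 with CRH in Cy5 at 3 h. At 6 h they were 0.34, 0.31 and 0.44 in the first orientation and -0.26, -0.50 and -0.49 in the second. Within each orientation the times did not overlap, yet at 6 h the sign of the ratio itself depended on the dye. The difference of -0.41 (SE 0.11, 95% interval -0.67 to -0.16) had an unadjusted p of 0.0015 and a limma adjusted p of 0.165. Of the other corticotrope and granule genes, 25 of 41 spots with Pomc included were below 0 with a median of -0.06, and Neurod1 had 0.36 and 0.26 on 2 spots. The second Neurod1 spot had 0.56 with CRH in Cy3 and -0.04 with CRH in Cy5.

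The 11 genes that the study carried forward were selected on these same arrays, so their values are no independent evidence. They had 16 tested spots, of which 8 were below 0, with 3 higher and 3 lower at an unadjusted p under 0.01, against 1.41% and 2.06% of all spots. Beside Mat2a, Acsl4, Malat1 and Hmgcs1, a spot assigned to Pebp1, which inhibits Raf kinase, went from 0.39 to 0.05. Nf2, which encodes merlin, had mean ratios of -0.47 and -0.14, with a difference of 0.62 with CRH in Cy3 and 0.05 with CRH in Cy5. Pex13, an import factor of peroxisomes, had -0.50 and -0.23, with differences of 0.51 and 0.04 in these orientations. At 6 h the sign of both genes' ratios depended on the dye, with 0.48 and -0.77 for Nf2 and 0.50 and -0.95 for Pex13. The Crem spot that the study carried forward was not among the tested spots. Another spot, which the deposited file names Crem, a modulator of cAMP-driven transcription, had 0.17 ± 0.38 at 3 h and -0.16 ± 0.35 at 6 h (SD, n = 6 arrays). The spots assigned to the AP-1 gene Fosl2 had mean ratios above 0 at both times, 0.51 and 0.48 on the first and 0.48 and 0.22 on the second. Their differences were -0.02 and -0.26. On the second spot, 5 of 6 arrays were above 0 at 3 h and 4 of 6 at 6 h. Cd3e and Loxl3 differed by 0.12 and -0.07. The deposited names of the Pebp1 and Fosl2 spots are other genes, and the study's table was followed.

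The other times show where the 3 h values stand. In time order from 1 h to 24 h, Lyve1 had mean ratios of -0.58, 0.77, 0.11, 0.20 and 0.41. Rpl41 had -0.65, 0.68, 0.04, 0.22 and 0.44, and Ly6e -0.39, 0.63, -0.03, 0.14 and 0.37. These 3 were thus below their control at 1 h and above it at 3 h. Mpp7 had -0.04 ± 0.58 at 1 h, 0.10 ± 0.36 at 12 h and 0.30 ± 0.64 at 24 h (SD, n = 6 arrays). Bcam had -0.21 ± 0.58 at 1 h, 0.15 ± 0.33 at 12 h and 0.07 ± 0.42 at 24 h. The cytosolic ribosome as a group had medians of -0.17, 0.19 and 0.00 over the first 3 times. Of the 22 spots lower by size, 3 were above 0 at 1 h and 17 at 12 h, with medians of -0.19 and 0.08. The medians of all tested spots were 0.003 at 1 h and -0.010 at 12 h. Across all tested spots, the 6 h minus 3 h difference correlated with the 1 h ratio with r of 0.22 and with the 12 h ratio with r of -0.07. The 296 spots lower at an unadjusted p under 0.01 in limma had a 1 h median of -0.16, so a low 1 h ratio was not limited to the 22 spots. Mat2a was above its control at 1 h (0.22) and below it at 24 h (-0.36). Each time has its own extracts, and the 1 h, 12 h and 24 h arrays were quantified on other days than those of 3 h and 6 h. A difference from these times cannot be told apart from one between days, and their values were not tested here.

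**Figure D5:**
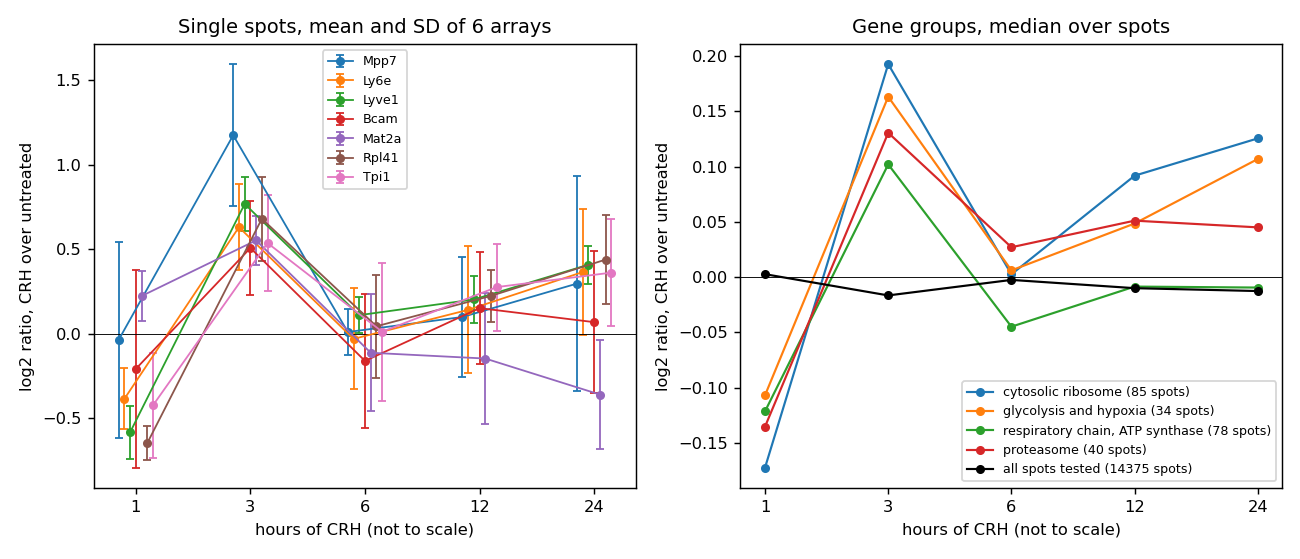
Log2 ratio of CRH over untreated (y axis) against hours of CRH, 1 to 24 (x axis, not to scale). On the left 7 single spots are shown as mean and SD of 6 arrays, of which Mpp7 reaches 1.18 at 3 h, and on the right the medians of 4 gene groups and of all spots, where the 4 groups have their highest value at 3 h.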

How the data were processed

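Per the labels, AtT-20 cells were plated 48 h before CRH, total RNA was amplified, and labelled aRNA was hybridised to spotted cDNA arrays. The deposited files hold raw intensities of both channels for each spot, quantified by the authors with a fixed circle, and a table of log2 ratios normalized by the authors with a lowess curve per print tip. The intensities were used here. No local background was subtracted. On each array the lowest 10% of intensities in either channel were removed, and log2 ratios were fitted with a loess curve per print tip (48 blocks, span 0.75, degree 2, 4 iterations). Spots complete on all 30 arrays were kept. Their ratios correlated with the deposited log2 ratios with r of 0.977 to 0.994 on the 12 arrays, over 11341 shared spots.

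Ratios of the 12 arrays were fitted with time and dye orientation in limma 3.58.1 (R 4.3.3), and p-values were adjusted over 14375 spots by Benjamini and Hochberg. Intervals of 95% used the residual degrees of freedom. Files were read with Python 3.11.15 and pandas 2.3.3, and figures were drawn with matplotlib 3.10.9. The fit was also run on simulated data with independent noise at each spot and no spread between cultures, so that run does not bear on the calls made here. Symbols came from the study's table (92 spots), from deposited names (613) and from RefSeq synonyms (4411), and where the table gives a gene and the file another the table was followed. Named genes were those past the adjusted threshold, the study's genes and the 1 or 2 largest differences of each of 20 gene lists, with all spots of such a gene, and further spots are named from the size rule, the per-time rule and the lists. Members and lists were chosen with earlier results of these data known. Alternatives were the deposited ratios, other background, filter and loess settings, other models, each orientation alone and each array left out. The number of arrays limits the precision against the spread between hybridisations only. With 1 pair of extracts per time, the spread between cultures was not measured.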

Additional observations from a re-analysis of the deposited data

Results flagged for a closer look

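The difference between 3 h and 6 h passed the adjusted threshold in limma for 5 spots, with log2 values of -1.17 for Mpp7, -0.67 for Bcam, -0.66 for Ly6e, -0.66 for Lyve1 and 0.82 for Exosc9, the last computed from channels at the scanner limit and so no measure of a response. Single arrays stood far from the other 5 of their time in 2 of 42 groups examined. Each group holds arrays of both dye orientations, so the share to be expected by chance cannot be given. At 3 h, Acsl4 had -0.52 on the array of replicate 3, with CRH in Cy3, and Crem had -0.54 on that of replicate 1, also with CRH in Cy3. Leaving out each array in turn changed the direction of neither gene's difference.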

How the results depend on the processing

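The directions of the 5 called spots held in every fit that included them, and all fits used the same extracts. Without the dye term, and with the replicate block, the interaction or all 5 times, the difference is the same by design. In those fits its sign could not turn. Against 1 higher and 4 lower spots, there were 0 and 1 with the deposited ratios, after subtraction of the 10th percentile, without removal of dim spots and with 1 loess curve per array. There were 0 and 0 without the dye term, 0 and 1 with CRH in Cy3 alone, and 3 and 4 with CRH in Cy5 alone, of which 0 were among the 5 called spots. Leaving out spots at the scanner limit gave 0 higher, scaling to equal spread 8 lower, and leaving out spots with an interaction 7 lower. With an interaction term there were 8 and 15, and with all 5 times in 1 fit 6 and 19. The ordinary linear model at an unadjusted p under 0.01 gave 207 and 336. A loess of degree 1, chosen after seeing the data, gave 10 and 8. Spots past the size rule numbered 39, but 507 after that subtraction, 214 without removal of dim spots, and 251 and 505 in the Cy3 and Cy5 orientation alone. Interaction calls were 3, but 0 without removal of dim spots and 1 with the deposited ratios. The median of immediate early genes was -0.17 with the deposited ratios, against -0.02. The causes of these changes were not tested.

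Leaving out 1 array gave 0 to 3 higher and 1 to 5 lower spots, 38 to 74 past the size rule, 1 to 13 interaction calls and 375 to 589 interaction spots at an unadjusted p under 0.01. Without 3 h replicate 3, 3 h replicate 5 or 6 h replicate 5 the count of lower spots was 1, without 3 h replicate 2 the size rule gave 74, and without 6 h replicate 6 there were 13 interaction calls.

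The replicate numbers share only a number, since deviations of same-numbered arrays of the 2 times correlated with r of -0.021 to 0.048. With the replicate block in place of the dye term there were 0 higher and 1 lower spots.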
